A study of Mus musculus with 9 samples.

Results

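G-protein-coupled receptor signalling genes were followed through RANKL-driven osteoclast differentiation and its treatment with uridine. They were the genes that the deposited table annotates with the Gene Ontology term for the G-protein-coupled receptor signalling pathway, and that had at least 10 counts in at least 3 of the 9 libraries. Genes of the cytokine receptor pathway ko04060, purine, adenosine, chemokine and odorant receptors (symbols starting P2r, Adora, Ccr, Cxcr, Olfr or Or), C3, C3ar1, C5ar1 and Adm were left out. Of 798 genes with the term, 113 had enough counts, and 94 of these remained after the exclusions. The calcitonin receptor gene Calcr, to which the table does not give the term, was included by name, so 95 of 14104 tested genes were described. The read counts decided which annotated genes were kept: 233 further annotated genes had too few counts, 136 of them with no count in any library.

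RAW264.7 is a mouse macrophage line that forms osteoclasts under RANKL, the cytokine that drives osteoclast differentiation. RNA was collected on day 3 from 3 groups of 3 libraries: untreated control cells, cells given RANKL and cells given RANKL with uridine, named UD. The labels call the 3 libraries of a group biological replicates, all groups share this single cell line, and the UD concentration of these libraries was not stated. The groups ask how RANKL changes gene expression and how UD alters it.

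A G-protein-coupled receptor senses a ligand outside the cell and activates a heterotrimeric G protein inside it, whose alpha subunit and beta-gamma pair then act on enzymes such as adenylyl cyclase, phospholipase C beta and PI3K gamma. RGS proteins shorten the signal by speeding up GTP hydrolysis on the alpha subunit, and receptor kinases and arrestins switch the receptor itself off. Calcitonin, sphingosine 1-phosphate and prostaglandins are ligands of such receptors with known actions on osteoclasts or their precursors.

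Library totals ranged from 15951800 to 19746862 counts, and the members held 0.622% to 0.654% of the counts in control, 0.651% to 0.674% in RANKL and 0.590% to 0.607% in RANKL + UD. All 9 osteoclast markers were higher in RANKL than in control. The summed FPKM of these markers (fragment counts scaled by exonic length and library total, a level per length) was 52.1 to 55.6 in control, 2738 to 2947 in RANKL and 1797 to 1834 in RANKL + UD. The sum over 8 macrophage markers was 9312 to 9903, 2485 to 2733 and 2165 to 2299 in the same order, with Marco at 0 in every library. Lyz2 makes up most of this sum, and Cd68 went the other way, with a mean of 549 FPKM in control and 782 in RANKL (log2 fold change 0.60, adjusted p = 4.35e-09). Under UD, 8 of the 9 osteoclast markers were lower than in RANKL and Car2 was higher (0.29, adjusted p = 0.000275). The sums over 8 osteoblast and stromal and over 8 lymphocyte, neutrophil and endothelial markers stayed at or below 0.99. The part that these marker changes play in the results below was not tested, and in bulk RNA fewer expressing cells and less RNA per cell cannot be told apart.

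Most members differed between control and RANKL, in both directions, and those that differed between RANKL + UD and RANKL were mostly lower. All adjusted p-values are from edgeR (quasi-likelihood test, Benjamini-Hochberg over all tested genes), and a call is an adjusted p under 0.05. By this test, 66 of 95 members were called in RANKL against control. Of these 31 rose and 35 fell, beside 54.7% of all genes called (26.2% higher, 28.5% lower). In RANKL + UD against RANKL, 44 members were called, 6 higher and 38 lower, where 34.7% of all genes were called, 16.6% higher and 18.2% lower. In RANKL + UD against control, 25 were higher and 45 lower, where 51.4% of all genes were called, 25.3% higher and 26.0% lower.

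The median log2 fold change of the members was -0.14 in RANKL against control, -0.21 in RANKL + UD against RANKL and -0.20 in RANKL + UD against control, beside -0.031, 0.004 and -0.001 over all genes. Counted by libraries instead of a test, 29 members had all RANKL FPKM values above all control values and 44 had them below, beside 22.3% and 37.4% of all genes. RANKL + UD stood wholly above RANKL in 15 members and wholly below in 37 (31.2% and 16.8% of all genes), and wholly above control in 25 and below in 44 (28.0% and 29.8%). FPKM is scaled by the library total alone, while the calls use TMM scaling, so the 2 kinds of count rest on different scaling. The TMM factors were 0.958 to 0.962 in RANKL and 1.013 to 1.024 in RANKL + UD. More than 2-fold changes were fitted for 33, 12 and 43 members, which is 34.7%, 12.6% and 45.3% of them, against 17.0%, 6.33% and 16.4% of all genes. These counts are descriptions, because the list was chosen with results of these data known and Calcr, Gm4356 and Gpr34 passed the count threshold through the libraries of 1 group only. Without these 3 genes, 6 of 92 members were higher and 37 lower in RANKL + UD against RANKL, and 30 were higher and 33 lower in RANKL against control. These 92 still include members such as Grk3, Rapgef4, Rgs8 and Gng4, which reached 10 counts only in libraries given RANKL. The threshold favoured a rise against control in such members, so the 30 higher calls are not free of the selection.

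Of the higher calls under UD, the count of 6 depended on single libraries and was 3 without RANKL replicate 1 and 3 without RANKL + UD replicate 3. Scaling by total counts moved the share of higher calls among called members from 13.6% to 20.5% in RANKL + UD against RANKL and from 47.0% to 40.3% in RANKL against control. Over all genes the same shares moved from 47.7% to 65.5% and from 47.8% to 37.4%.

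**Figure D1:**
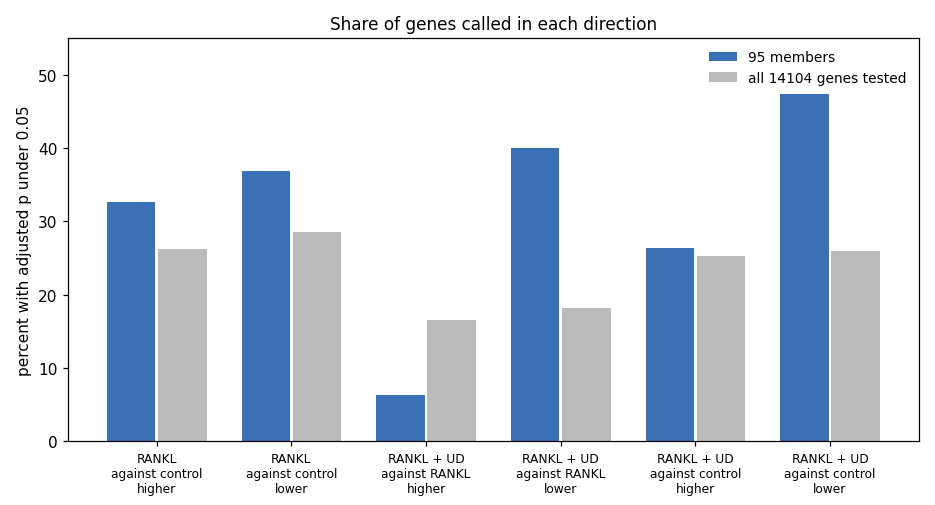
Percent of the 95 members (blue) and of all 14104 tested genes (grey) with an adjusted p under 0.05 in edgeR's quasi-likelihood test, by comparison and direction. In RANKL + UD against RANKL, 40.0% of members were lower and 6.32% higher, and the corresponding shares of all genes were 18.2% and 16.6%.

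**Figure D2:**
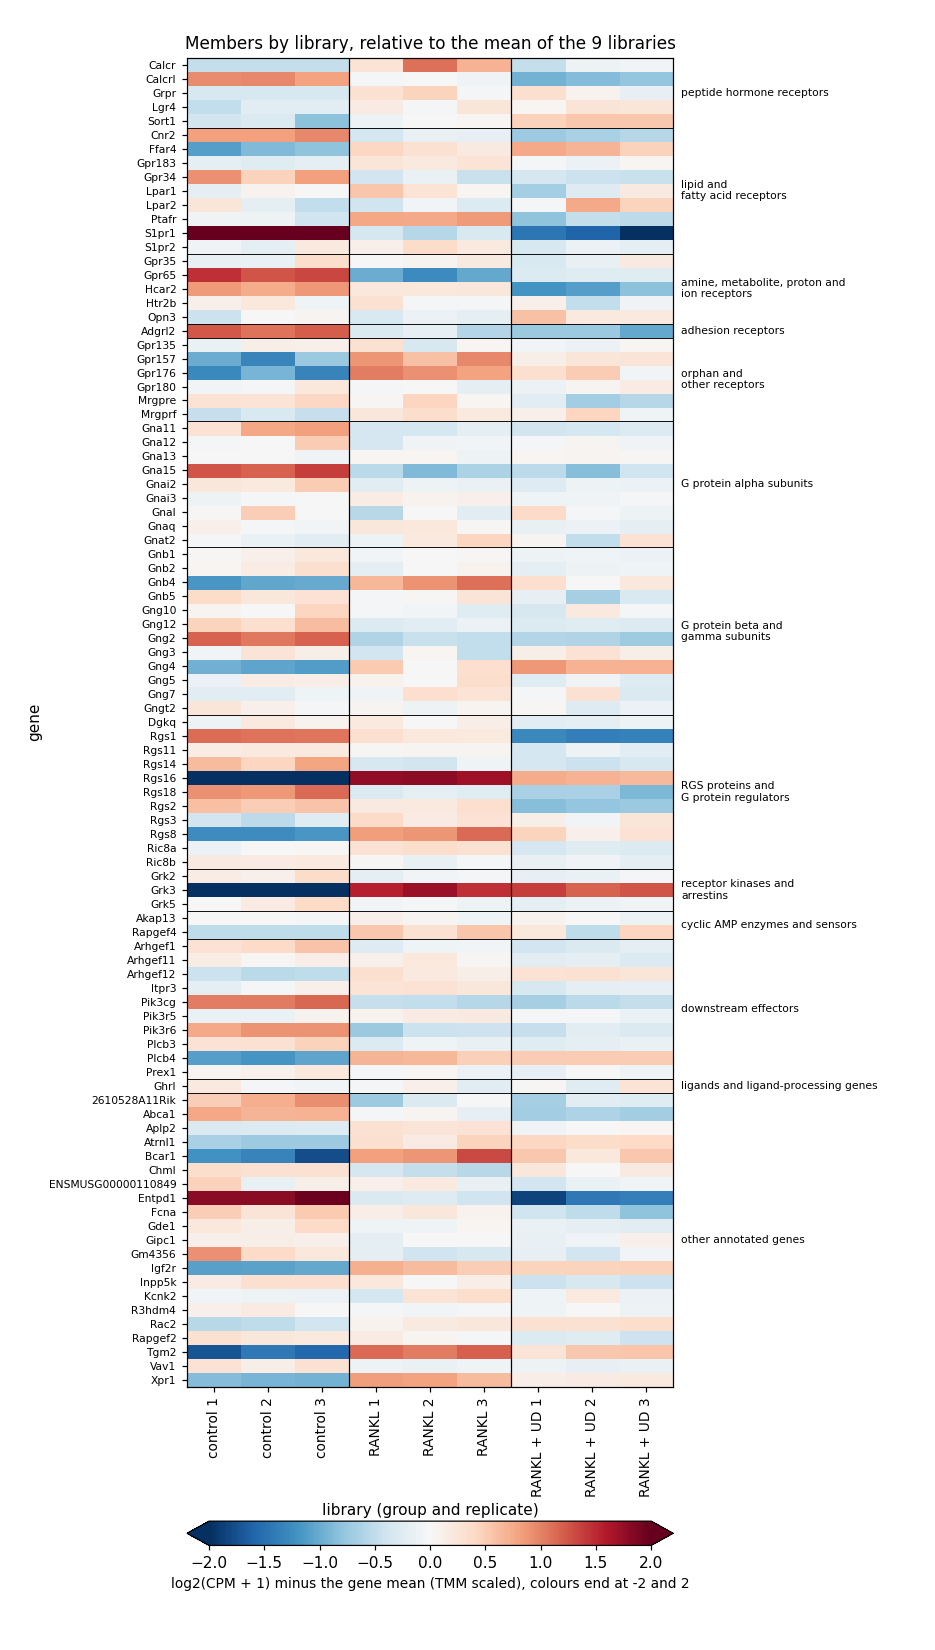
TMM-scaled log2(CPM + 1) of each member (rows, grouped by role) in each of the 9 libraries (columns), minus the gene's mean over the libraries; red is above and blue below that mean, with colours ending at -2 and 2. The 3 libraries of each group resemble each other in the members with large changes, such as S1pr1, Entpd1, Rgs16, Grk3 and Tgm2.

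Receptors were the largest family, with 26 members, and most were expressed at low levels: 13 had a mean FPKM under 1 over the 9 libraries and 2 a mean of 10 or more. Of these 26, 10 rose and 7 fell with RANKL, while 4 were higher and 12 lower in RANKL + UD than in RANKL. The shares of all genes were 26.2% higher and 28.5% lower with RANKL and 16.6% and 18.2% under UD. Without Calcr and Gpr34, which passed the count threshold through 1 group, 9 of 24 rose and 6 fell with RANKL, and 4 were higher and 11 lower under UD. The rises still include Ffar4 and Mrgprf, which reached 10 counts only in libraries given RANKL, so the threshold favoured their rise against control. Against control, 9 of the 26 were higher and 9 lower in RANKL + UD, beside 25.3% and 26.0% of all genes. Without Calcr and Gpr34 these counts were 8 and 8 of 24. The 4 higher calls under UD became 2 without RANKL replicate 1 or 3 or RANKL + UD replicate 2 or 3, and the 9 higher calls against control became 6 without control replicate 2 or RANKL + UD replicate 3.

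Among 5 receptors classed with peptide hormones, the calcitonin receptor gene Calcr, a marker of the mature osteoclast, had 0, 0 and 0 counts in control, 13, 37 and 23 in RANKL and 0, 5 and 6 in RANKL + UD. Every RANKL library lay above every other library, and 1 RANKL + UD library had no read. The corresponding FPKM values were 0 in each control library, 0.17, 0.49 and 0.31 in RANKL and 0, 0.08 and 0.09 in RANKL + UD. With 3 counts over the control group as the floor, the observed Calcr counts gave ratios to control of 22.0 in RANKL and 3.62 in RANKL + UD. The counting error of the RANKL and RANKL + UD libraries is not in these ratios. Set against RANKL, RANKL + UD gave Calcr a fitted log2 value of -2.63 ± 0.68 (SE), which depends on few counts. These values describe Calcr and carry no test here, since the gene was included by name and reached the count threshold in the RANKL libraries only, and an antisense gene, ENSMUSG00000120192, overlaps it.

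The 250 bases before each of the RefSeq starts of Calcr (GRCm38.p6, minus strand) are shown with 4 motifs in capitals on either strand. GGAAA is the core bound by NFAT factors. TGANTCA, where N is any base, is a pattern that includes the AP-1 site but is wider than it. TGACGTCA is the cyclic AMP response element, and TGACG is a part of that element.
Calcr, chr6:3763624-3763873: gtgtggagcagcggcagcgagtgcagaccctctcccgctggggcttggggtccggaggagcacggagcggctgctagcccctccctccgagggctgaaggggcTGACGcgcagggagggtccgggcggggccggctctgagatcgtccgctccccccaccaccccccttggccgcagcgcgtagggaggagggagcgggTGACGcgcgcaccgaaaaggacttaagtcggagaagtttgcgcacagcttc
Calcr, chr6:3764714-3764963: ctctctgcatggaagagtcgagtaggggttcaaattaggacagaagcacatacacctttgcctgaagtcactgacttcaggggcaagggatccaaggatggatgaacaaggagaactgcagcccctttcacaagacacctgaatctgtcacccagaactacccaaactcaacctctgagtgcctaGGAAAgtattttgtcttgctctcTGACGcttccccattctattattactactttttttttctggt
The first window held TGACG at 2 places and the second held it once, with GGAAA at 1 place. Over all 32841 promoter windows of this length, 55.6% held GGAAA, 6.75% TGANTCA, 1.55% TGACGTCA and 17.8% TGACG. The table matched 74 of 95 members by symbol, of which 41 (55.4%) held GGAAA, 8 (10.8%) TGANTCA, 1 (1.35%) TGACGTCA and 14 (18.9%) TGACG in at least 1 window. The shares over all windows are per window, while those of the members are per gene with a match in any of its windows. A gene with several windows has more places to match, so the 2 kinds of share cannot be compared directly. A match is a run of letters and not a tested binding site.

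Calcrl, the receptor for calcitonin gene-related peptide and adrenomedullin, had a far higher level than Calcr. Its FPKM was 31.64, 32.32 and 28.57 in control, 14.94, 15.52 and 14.65 in RANKL and 8.34, 8.89 and 9.46 in RANKL + UD, with no overlap between any of the groups. The log2 fold change was -0.94 ± 0.06 (SE, adjusted p = 3.31e-12) with RANKL and -0.84 ± 0.064 (SE, adjusted p = 6.28e-10) with UD on top of it. The bombesin-type receptor Grpr had 10, 13 and 4 counts in RANKL, 11, 5 and 2 in RANKL + UD and none in control. With the floor of 3 counts over the control group, these counts gave ratios to control of 8.12 in RANKL and 5.92 in RANKL + UD. With so few counts, Grpr gave -0.55 ± 0.67 (SE) between RANKL + UD and RANKL (adjusted p = 0.572), and a difference between them was not detectable at this depth.

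Sort1, sortilin, a sorting receptor that binds neurotensin, was among the few members that rose under UD. Its FPKM was 0.74, 0.79 and 0.51 in control, 0.86, 0.94 and 0.96 in RANKL and 1.4, 1.51 and 1.5 in RANKL + UD, and the groups did not overlap. On the log2 scale the change was 0.59 ± 0.15 (SE, adjusted p = 0.00354) in RANKL + UD against RANKL. The call of RANKL against control (0.52, adjusted p = 0.00855) was lost without control replicate 3 (adjusted p = 0.0566) and by limma (0.0575).

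Of 9 receptors for lipids and fatty acids, 4 rose and 3 fell with RANKL, and 5 fell and 1 rose in RANKL + UD against RANKL, beside 26.2%, 28.5%, 18.2% and 16.6% of all genes. One of the 3 falls with RANKL was Gpr34, which passed the threshold through control only. S1pr1, the sphingosine 1-phosphate receptor that guides migration of osteoclast precursors, had the largest fall of the named members in RANKL + UD against control. Its FPKM was 10.9, 10.04 and 10.48 in control, 1.47, 1.22 and 1.54 in RANKL and 0.55, 0.46 and 0.21 in RANKL + UD. The control libraries stood far above the rest and the lowest RANKL library was above the highest RANKL + UD library. The log2 fold change was -2.80 ± 0.15 (SE, adjusted p = 1.76e-13) with RANKL, -1.85 ± 0.22 (SE, adjusted p = 7.62e-07) with UD on top of RANKL and -4.65 ± 0.18 (SE, adjusted p = 6.67e-16) between RANKL + UD and control.

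Ptafr, the receptor for platelet-activating factor, moved up with RANKL and down with UD. Its FPKM was 6.33, 6.28 and 4.96 in control, 10.94, 10.88 and 11.52 in RANKL and 3.69, 4.72 and 4.54 in RANKL + UD. The RANKL libraries were the highest, and every RANKL + UD library lay below every control library. On the log2 scale the change was 1.01 ± 0.10 (SE, adjusted p = 1.04e-08) with RANKL, -1.46 ± 0.10 (SE, adjusted p = 2.82e-10) in RANKL + UD against RANKL and -0.44 ± 0.11 (SE, adjusted p = 0.00155) against control. The 250 bases before its RefSeq start (GRCm38.p6, plus strand) are shown because Ptafr had the smallest adjusted p of the lipid receptors under UD, and they held GGAAA at 3 places on the 2 strands.
Ptafr, chr4:132563817-132564066: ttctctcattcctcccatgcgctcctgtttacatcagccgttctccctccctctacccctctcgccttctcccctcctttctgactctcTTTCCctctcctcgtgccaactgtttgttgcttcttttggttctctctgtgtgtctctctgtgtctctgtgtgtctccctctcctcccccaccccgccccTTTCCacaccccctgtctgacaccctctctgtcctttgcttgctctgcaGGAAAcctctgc

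Among the lipid receptors chosen after their values were seen, the cannabinoid receptor Cnr2 fell with RANKL (-1.18, adjusted p = 1.09e-08) and was lower again with UD (-0.49, adjusted p = 0.00545). The oxysterol receptor Gpr183 was the most abundant of the 26 members classed as receptors here, a class that leaves out Igf2r. Its FPKM was 42 ± 0.767 (SD, n = 3) in control, 53.4 ± 1.23 in RANKL and 46.8 ± 2.52 in RANKL + UD. Gpr183 rose by 0.44 ± 0.052 (SE, adjusted p = 2.12e-07) on the log2 scale with RANKL and differed by -0.28 ± 0.052 (SE, adjusted p = 0.000223) between RANKL + UD and RANKL. The fatty acid receptor Ffar4 rose with RANKL (2.86, adjusted p = 4.25e-06) and had FPKM of 1.49, 1.33 and 1.15 in RANKL and 2.18, 2.06 and 1.65 in RANKL + UD, without overlap. This difference under UD was not called by edgeR (0.48, adjusted p = 0.242) and was called by limma on log2(FPKM + 1) (adjusted p = 0.0216). The higher call of the lysophosphatidic acid receptor Lpar2 under UD (1.30, adjusted p = 0.0373) was lost without RANKL replicate 1 or 3 or RANKL + UD replicate 2 or 3, with adjusted p between 0.0827 and 0.191, and by limma (0.0811). The smaller call of Gpr183 between RANKL + UD and control (0.16, adjusted p = 0.0137) was lost without control replicate 2 or RANKL + UD replicate 3 (adjusted p = 0.0631 and 0.104).

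Of 5 receptors for amines, metabolites, protons and light, Hcar2, which binds nicotinic acid and beta-hydroxybutyrate, fell in both steps. Its FPKM was 7.51, 6.95 and 7.57 in control, 4.34, 4.34 and 4.4 in RANKL and 1.4, 1.56 and 1.98 in RANKL + UD, and no group overlapped another. The log2 fold change was -0.66 ± 0.13 (SE, adjusted p = 0.000202) with RANKL and -1.50 ± 0.16 (SE, adjusted p = 9.21e-08) in RANKL + UD against RANKL.

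Gpr65, a proton-sensing receptor, went the other way under UD. Its FPKM was 14.92, 12.92 and 13.54 in control, 2.16, 1.7 and 2.12 in RANKL and 4.11, 4.24 and 4.2 in RANKL + UD. The RANKL + UD libraries stood above all RANKL libraries and below all control libraries. On the log2 scale the change was -2.70 ± 0.13 (SE, adjusted p = 1.16e-14) with RANKL, 0.98 ± 0.14 (SE, adjusted p = 5.88e-06) in RANKL + UD against RANKL and -1.72 ± 0.12 (SE, adjusted p = 1.26e-11) against control. This was the largest rise under UD among the members with a mean of at least 50 counts in the higher group, and the 250 bases before its RefSeq start (GRCm38.p6, plus strand), with GGAAA at 1 place, are shown for that reason.
Gpr65, chr12:98268385-98268634: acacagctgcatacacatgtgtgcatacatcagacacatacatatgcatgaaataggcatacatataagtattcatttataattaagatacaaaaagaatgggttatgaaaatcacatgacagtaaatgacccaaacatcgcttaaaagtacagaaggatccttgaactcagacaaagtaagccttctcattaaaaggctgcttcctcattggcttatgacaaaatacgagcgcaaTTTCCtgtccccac
The opsin Opn3 was also called higher under UD (1.09, adjusted p = 0.0475), a call that was lost with the removal of any RANKL or RANKL + UD library or of control replicate 2, with adjusted p from 0.0571 to 0.206. It was also lost with RLE size factors (0.0502), DESeq2 (0.0571), the replicate block (0.0595) and no filter (0.0677). Opn3 overlaps Chml on the same strand, and Chml was higher under UD as well.

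The latrophilin Adgrl2, an adhesion receptor, fell with RANKL from 1.31, 1.17 and 1.28 FPKM to 0.38, 0.42 and 0.3, and its RANKL + UD values were 0.28, 0.28 and 0.22. The log2 fold change was -1.68 ± 0.15 (SE, adjusted p = 1.09e-09) and, under UD, -0.60 ± 0.17 (SE, adjusted p = 0.00782). The second call was lost without RANKL replicate 2 (adjusted p = 0.0527) and by limma (0.179). Among 6 orphan and other receptors, 3 rose with RANKL and 3 fell in RANKL + UD against RANKL, beside 26.2% and 18.2% of all genes. The orphan receptor Gpr176 had an FPKM of 0.62, 0.88 and 0.59 in control, 3.89, 3.61 and 3.32 in RANKL and 2.47, 2.83 and 1.83 in RANKL + UD. Its log2 fold change was 2.44 ± 0.18 (SE, adjusted p = 5.72e-11) with RANKL and -0.69 ± 0.15 (SE, adjusted p = 0.0012) under UD. Gpr157, another orphan receptor, gave 2.30 ± 0.21 (SE, adjusted p = 2.32e-09) and -0.70 ± 0.18 (SE, adjusted p = 0.00414). In both orphan receptors every RANKL + UD library lay between the control and the RANKL libraries.

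**Figure D3:**
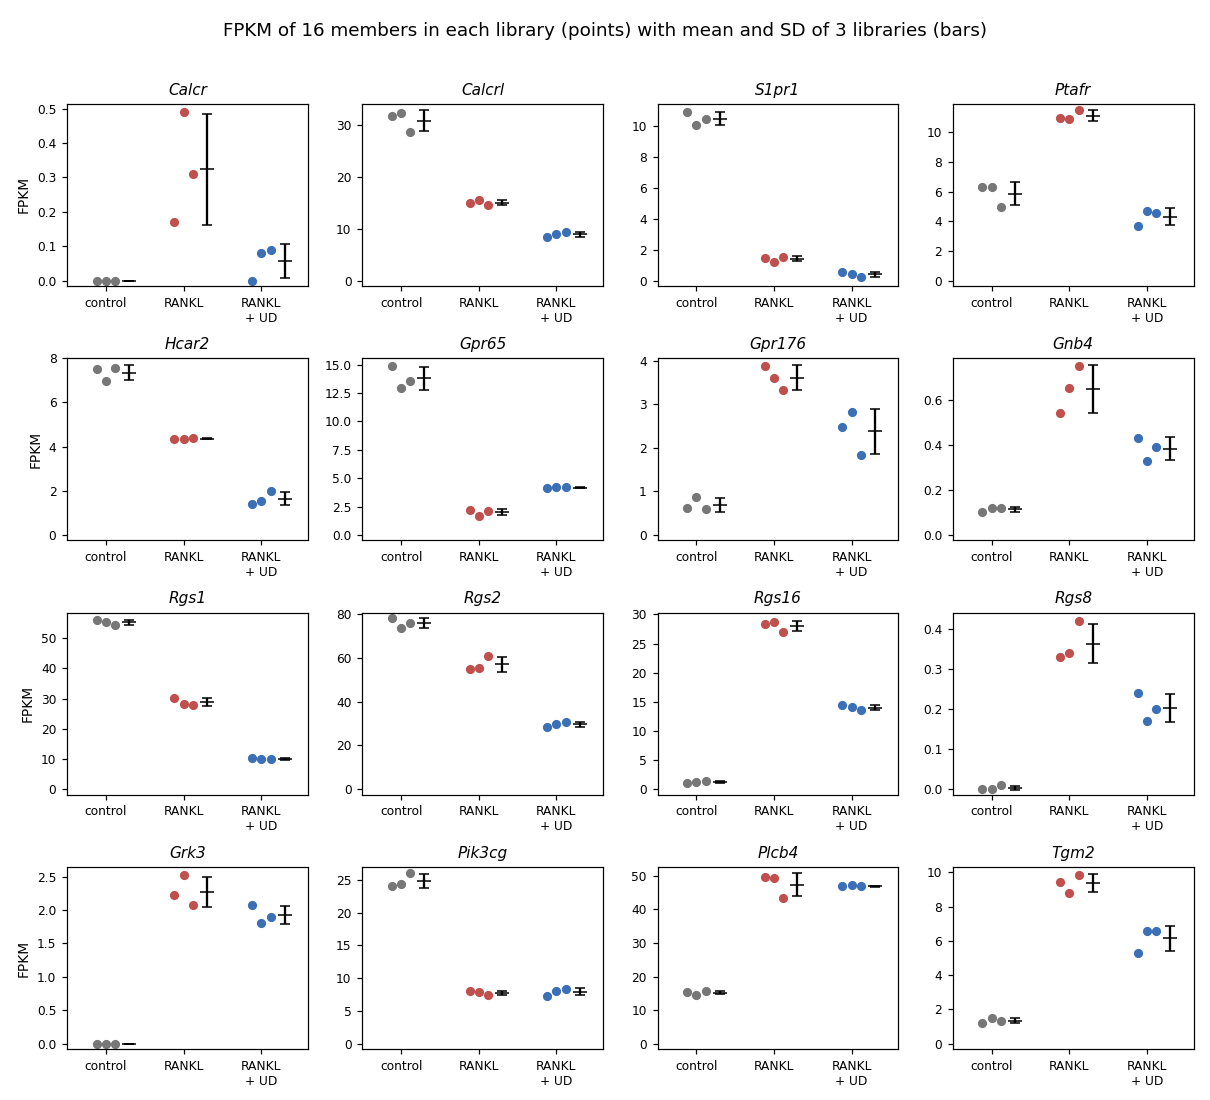
FPKM of 16 members (panels) in each library (points) of control (grey), RANKL (red) and RANKL + UD (blue), with the mean and SD of 3 libraries as black bars beside the points and each axis on its own scale. Ptafr, Gpr176, Gnb4, Rgs16, Rgs8, Tgm2 and Calcr are highest in RANKL, Calcrl, S1pr1, Hcar2, Rgs1 and Rgs2 step down from control to RANKL to RANKL + UD, and Gpr65 is lowest in RANKL.

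G protein subunits were more abundant than receptors: the median of the mean FPKM was 7.47 over 21 subunits and 0.837 over 26 receptors. With RANKL, 4 subunits rose and 8 fell, and in RANKL + UD against RANKL 5 fell and 16 were not called. Of all genes, 26.2% rose and 28.5% fell with RANKL and 18.2% fell under UD. The 8 falls with RANKL became 5 without control replicate 3 or RANKL replicate 1, and the 5 under UD became 3 without RANKL replicate 3. The most abundant were the inhibitory alpha subunits Gnai2, with 120.3 ± 14 (SD, n = 3) FPKM in control, 82 ± 2.99 in RANKL and 86.5 ± 5.29 in RANKL + UD, and Gnai3, with 80.3 ± 2.5, 83.9 ± 1.83 and 79.2 ± 1.86. The beta subunit Gnb1 had 77.2 ± 4.7, 66.5 ± 1.98 and 66.3 ± 1.05 FPKM. Gnai2 fell with RANKL (log2 fold change -0.46, adjusted p = 2.23e-06). Its difference under UD was -0.009 ± 0.065 (SE, adjusted p = 0.935), whose sign turned with total counts (0.077). The calls of Gnai3 (0.16 with RANKL, -0.17 under UD) were lost with total counts (adjusted p = 0.26 and 0.166) and by limma (0.172 and 0.106). The call of Gnb1 with RANKL (-0.12, adjusted p = 0.0432) was lost without control replicate 2 or 3, RANKL replicate 1 or 2 or RANKL + UD replicate 2 or 3, with adjusted p from 0.0593 to 0.189. It was also lost with RLE size factors (0.0951), DESeq2 (0.0954), no filter (0.0889) and the 6 libraries of the comparison (0.157).

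Gna15, the promiscuous alpha subunit of blood cells, fell from 8.31, 7.99 and 9.16 FPKM in control to 1.93, 1.43 and 1.78 in RANKL and stood at 2.07, 1.58 and 2.33 in RANKL + UD. The RANKL and RANKL + UD libraries overlapped, and all lay below control. On the log2 scale the change was -2.21 ± 0.16 (SE, adjusted p = 2.84e-11) with RANKL and 0.14 ± 0.18 (SE, adjusted p = 0.597) under UD. Gnaq, which activates phospholipase C beta, had 40.04, 39.64 and 34.59 FPKM in RANKL and 32.48, 33.63 and 31.55 in RANKL + UD, a log2 fold change of -0.31 ± 0.058 (SE, adjusted p = 0.000171). Its smaller call with RANKL (0.15, adjusted p = 0.0313) was lost without control replicate 2 or 3 or RANKL replicate 1 or 2, with adjusted p from 0.0923 to 0.148, with total counts (0.413) and by limma (0.485).

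The gamma subunit Gng2 fell with RANKL from 14.7, 13.55 and 14.64 FPKM to 3.85, 4.3 and 4.17 and had 4.13, 4.11 and 3.75 in RANKL + UD. That is a log2 fold change of -1.71 ± 0.083 (SE, adjusted p = 2.55e-14) and, under UD, -0.13 ± 0.089 (SE, adjusted p = 0.304). The beta subunit Gnb4 rose at a much lower level, from 0.1, 0.12 and 0.12 FPKM in control to 0.54, 0.65 and 0.75 in RANKL, and was 0.43, 0.33 and 0.39 in RANKL + UD. Its RANKL + UD libraries lay between the other groups, with log2 fold changes of 2.57 ± 0.21 (SE, adjusted p = 3.47e-10) and -0.82 ± 0.18 (SE, adjusted p = 0.000902). The gamma subunit Gng4, chosen after its values were seen, had 3 counts in all of control against 94 in RANKL, a ratio of 28.3 (95% interval 9.39 to 140, counting error only), and 145 in RANKL + UD, a ratio of 47.7 (16.0 to 234). Its FPKM was 0.61, 0.34 and 0.5 in RANKL and 0.9, 0.77 and 0.76 in RANKL + UD, without overlap. The difference was not called by edgeR (0.66, adjusted p = 0.139) and was called by limma (adjusted p = 0.0148).

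RGS proteins and G protein regulators moved downward under UD where they were called: 7 of 11 members fell in RANKL + UD against RANKL and 4 were not called, beside 18.2% of all genes lower, and the median log2 fold change was -0.62. With RANKL, 4 of the 11 rose and 5 fell, beside 26.2% and 28.5% of all genes. The 7 falls under UD include Rgs11 (-0.28, adjusted p = 0.0321), named after its values were seen. This call was lost without any single RANKL library or RANKL + UD replicate 1 or 3, with adjusted p from 0.0542 to 0.171. It was also lost with total counts (0.138), by limma (0.116) and with no filter (0.0844). Rgs1, which limits Gi and Gq signals in leukocytes, had the smallest adjusted p of all 95 members under UD. Its FPKM was 56.1, 55.22 and 54.23 in control, 30.34, 28.29 and 27.75 in RANKL and 10.43, 9.95 and 9.95 in RANKL + UD, and replicates were close to each other while the groups were far apart. The log2 fold change was -0.85 ± 0.049 (SE, adjusted p = 7.04e-13) with RANKL, -1.59 ± 0.052 (SE, adjusted p = 8.12e-16) under UD and -2.44 ± 0.053 (SE, adjusted p = 1.26e-20) in RANKL + UD against control.

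Rgs2, a regulator that prefers Gq, stepped down in the same order. Its FPKM was 78.04, 73.51 and 76 in control, 54.94, 55.26 and 60.83 in RANKL and 28.32, 29.99 and 30.58 in RANKL + UD. Rgs2 changed by -0.32 ± 0.052 (SE, adjusted p = 1.59e-05) on the log2 scale with RANKL and by -1.03 ± 0.054 (SE, adjusted p = 1.76e-12) under UD. Rgs18, a regulator found in blood and bone marrow cells, had 4, 3.86 and 4.72 FPKM in control, 1.35, 1.5 and 1.41 in RANKL and 1, 1.03 and 0.77 in RANKL + UD. Rgs18 changed by -1.47 ± 0.18 (SE, adjusted p = 4.6e-07) on the log2 scale with RANKL and by -0.69 ± 0.22 (SE, adjusted p = 0.0161) under UD. The second call of Rgs18 was lost without RANKL replicate 2 (adjusted p = 0.0512) or RANKL + UD replicate 3 (adjusted p = 0.0775).

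Rgs16 and Rgs8 rose with RANKL instead. Rgs16, an inducible regulator of Gi and Gq, went from 1.04, 1.26 and 1.37 FPKM in control to 28.33, 28.76 and 27.01 in RANKL and was 14.4, 14.08 and 13.59 in RANKL + UD, so each RANKL + UD library lay between the other groups. On the log2 scale the change was 4.61 ± 0.10 (SE, adjusted p = 2.62e-20) with RANKL and -1.08 ± 0.077 (SE, adjusted p = 2.29e-10) under UD. Rgs8 had 1 count in all of control against 203 in RANKL, a ratio of 183 (95% interval 32.5 to 7270, counting error only), and 105 in RANKL + UD, a ratio of 104 (18.2 to 4130). Its log2 fold change under UD, -0.92 ± 0.29 (SE, adjusted p = 0.0172), was not called without RANKL replicate 3 (adjusted p = 0.0856) or RANKL + UD replicate 2 (adjusted p = 0.0777).

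In the table's coordinates the minus-strand genes Rgs2, Rgs1 and Rgs18 begin at 143879899, 144124980 and 144651173 of chromosome 1, and the plus-strand genes Rgs8 and Rgs16 at 153528771 and 153616095 of the same chromosome. The 250 bases before the RefSeq starts of Rgs2 (minus strand) and Rgs16 (plus strand), in GRCm38.p6 coordinates that must not be mixed with those of the table, are shown as a gene that RANKL lowered and a gene that RANKL raised.
Rgs2, chr1:144004150-144004399: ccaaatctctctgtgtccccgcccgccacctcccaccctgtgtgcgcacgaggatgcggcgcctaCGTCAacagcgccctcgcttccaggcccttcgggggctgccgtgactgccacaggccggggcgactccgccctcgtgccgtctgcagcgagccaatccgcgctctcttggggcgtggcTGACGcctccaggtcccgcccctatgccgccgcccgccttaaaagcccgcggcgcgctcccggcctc
Rgs16, chr1:153740103-153740352: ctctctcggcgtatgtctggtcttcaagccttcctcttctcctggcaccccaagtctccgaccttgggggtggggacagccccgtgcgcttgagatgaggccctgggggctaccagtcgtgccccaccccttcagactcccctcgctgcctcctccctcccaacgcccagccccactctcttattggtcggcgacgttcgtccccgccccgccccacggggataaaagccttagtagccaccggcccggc
The Rgs2 window held TGACG at 2 places and the Rgs16 window none of the 4 motifs. Further regulators were chosen after their values were seen. Ric8a, a chaperone of alpha subunits, had 5.17, 5.68 and 5.7 FPKM in control, 6.47, 6.74 and 6.54 in RANKL and 4.36, 4.7 and 4.58 in RANKL + UD. Ric8a changed by 0.35 ± 0.072 (SE, adjusted p = 0.000282) on the log2 scale with RANKL and by -0.62 ± 0.073 (SE, adjusted p = 5.7e-07) under UD, and Bet1l and Sirt3 on the opposite strand overlap it. Rgs14 fell with RANKL (-0.94, adjusted p = 1.24e-06) and was not called under UD (-0.12, adjusted p = 0.535).

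Grk3, a kinase that phosphorylates activated receptors, was counted only in libraries given RANKL. It had no count in the 3 control libraries, 381, 424 and 347 counts in RANKL and 353, 257 and 286 in RANKL + UD. With the floor of 3 counts over the control group, the observed Grk3 counts gave ratios to control of 347 in RANKL and 295 in RANKL + UD. Between RANKL + UD and RANKL its log2 fold change was -0.32 ± 0.12 (SE, adjusted p = 0.0358), a call that was lost with total counts (adjusted p = 0.117), by limma (0.119), with no filter (0.0568) and without RANKL replicate 1 or 2 or RANKL + UD replicate 2 or 3 (adjusted p from 0.0649 to 0.185).

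Downstream of the G proteins, 4 of 10 effectors, such as phospholipase and PI3K genes, rose and 5 fell with RANKL, and 3 fell and 7 were not called under UD. The shares over all genes were 26.2% and 28.5% with RANKL and 18.2% lower under UD. Pik3cg, the catalytic subunit of PI3K gamma, which beta-gamma subunits activate, had 24.1, 24.44 and 26.05 FPKM in control, 7.99, 7.84 and 7.42 in RANKL and 7.31, 8.07 and 8.36 in RANKL + UD. Pik3r6, a regulatory subunit of the same enzyme, had 5.52, 6.18 and 6.08 FPKM in control, 1.67, 2.14 and 2.14 in RANKL and 2.18, 2.66 and 2.51 in RANKL + UD. Both fell with RANKL, with log2 fold changes of -1.59 ± 0.059 (SE, adjusted p = 1.49e-16) and -1.49 ± 0.13 (SE, adjusted p = 6.76e-10). Neither was called under UD (-0.057 and 0.21, adjusted p = 0.509 and 0.241), and the sign of the first turned with total counts (0.029).

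Plcb4, a phospholipase C beta activated by Gq, rose with RANKL from 15.38, 14.64 and 15.72 FPKM to 49.57, 49.22 and 43.44 and had 46.84, 47.14 and 46.88 in RANKL + UD. Its log2 fold change with RANKL was 1.73 ± 0.055 (SE, adjusted p = 8.23e-18). Under UD it was -0.10 ± 0.052 (SE, adjusted p = 0.15), which passed the threshold only without RANKL replicate 3 (adjusted p = 0.0106). Itpr3, an IP3 receptor that releases calcium from stores, had 12.31, 12.58 and 11.9 FPKM in RANKL and 8.66, 9.54 and 9.67 in RANKL + UD, with no overlap and a log2 fold change of -0.49 ± 0.064 (SE, adjusted p = 2.68e-06). Rapgef4, the cyclic AMP sensor Epac2, had no count in control and 20, 14 and 20 counts in RANKL and 13, 0 and 16 in RANKL + UD. With the floor of 3 counts over the control group, these counts gave ratios to control of 16.2 in RANKL and 9.54 in RANKL + UD. The only member classed as a ligand, the ghrelin gene Ghrl, was called in none of the comparisons, with FPKM of 0.88, 0.61 and 0.58 in control, 0.56, 0.72 and 0.39 in RANKL and 0.66, 0.4 and 0.97 in RANKL + UD. Its edgeR p without adjustment did not pass 0.05 in any.

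**Figure D4:**
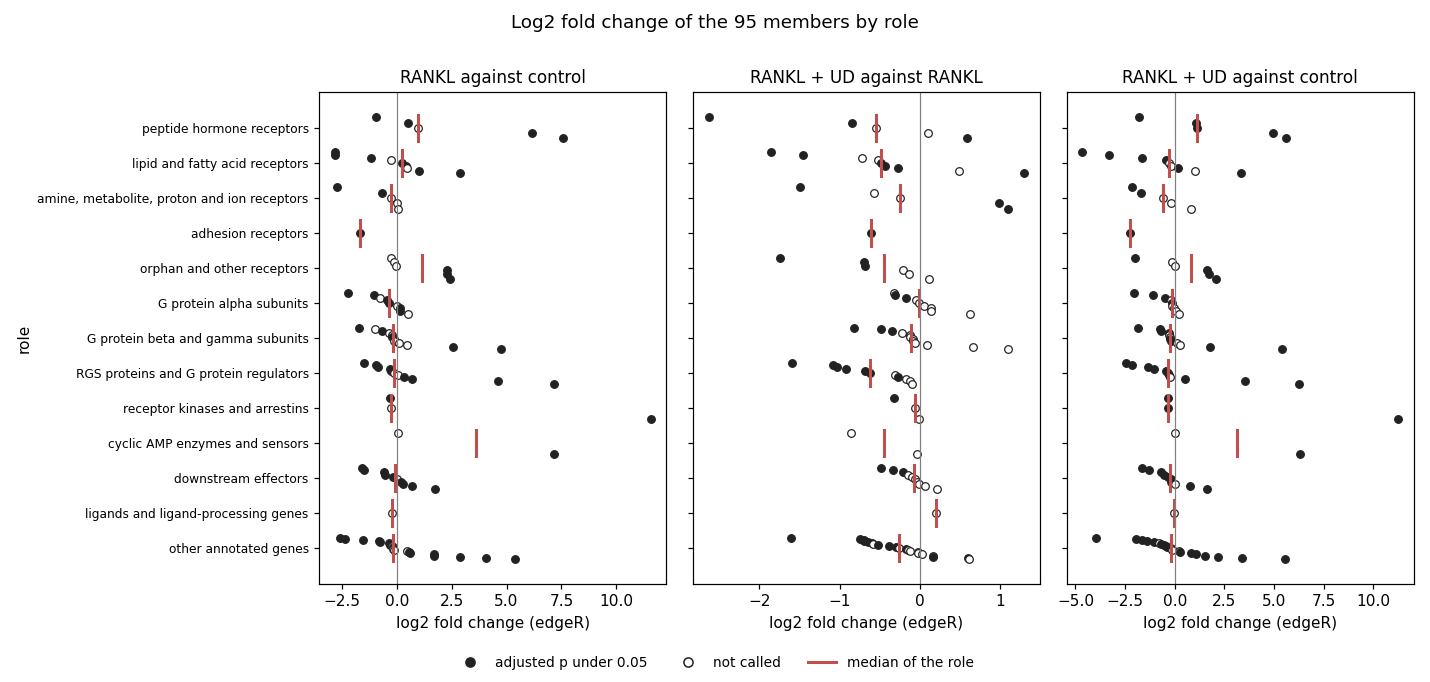
Log2 fold change of each member (points, filled where the adjusted p was under 0.05) by role in the 3 comparisons, with the median of each role in red; each panel has its own horizontal scale, and the values of genes with no control counts, such as Grk3, are fitted and are not bounds. In RANKL + UD against RANKL the RGS points lie at or below 0, and with RANKL several roles hold points far on both sides.

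The other 21 annotated members have mixed functions, and 7 rose and 9 fell with RANKL while 2 were higher and 10 lower under UD, beside 26.2%, 28.5%, 16.6% and 18.2% of all genes. Without Gm4356, which passed the threshold through control only, 8 of 20 fell with RANKL. Entpd1, the ectoenzyme CD39 that breaks down extracellular ATP, had 5.26, 5.27 and 5.85 FPKM in control, 1.02, 1.05 and 0.93 in RANKL and 0.25, 0.4 and 0.42 in RANKL + UD. The groups stepped down without overlap, with log2 fold changes of -2.35 ± 0.13 (SE, adjusted p = 3.24e-13) and -1.61 ± 0.18 (SE, adjusted p = 2.32e-07). A further gene, Gm8783, overlaps it on the same strand.

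Tgm2, a transglutaminase that also binds GTP, had 1.19, 1.52 and 1.35 FPKM in control, 9.42, 8.8 and 9.85 in RANKL and 5.32, 6.55 and 6.6 in RANKL + UD, with the RANKL + UD libraries between the others. Its log2 fold change was 2.88 ± 0.11 (SE, adjusted p = 4.94e-16) with RANKL and -0.69 ± 0.095 (SE, adjusted p = 4.69e-06) under UD. Bcar1, the adhesion adaptor p130Cas, had 0.13, 0.1 and 0.01 FPKM in control, 1.15, 1.21 and 1.7 in RANKL and 0.95, 0.73 and 0.97 in RANKL + UD. It rose by 4.08 ± 0.35 (SE, adjusted p = 7.13e-10) on the log2 scale with RANKL. Its call under UD (-0.69, adjusted p = 0.0294) was lost without RANKL replicate 3 (adjusted p = 0.196) or any RANKL + UD library (adjusted p from 0.0501 to 0.128) and with total counts (0.0526). Igf2r, which carries lysosomal enzymes bearing mannose 6-phosphate, rose with RANKL from 21.3 ± 0.417 (SD, n = 3) to 64.3 ± 4.8 FPKM (log2 fold change 1.68, adjusted p = 7.21e-18) and had 60.8 ± 0.605 in RANKL + UD. Its call under UD (-0.17, adjusted p = 0.0128) was lost without RANKL replicate 1 (adjusted p = 0.0997) and with total counts (adjusted p = 0.219) or limma (0.27). The phosphate exporter Xpr1, chosen after its values were seen, had 10.46, 10.05 and 9.91 FPKM in control, 31.94, 31.4 and 27.87 in RANKL and 20.72, 21.38 and 21.77 in RANKL + UD. Xpr1 changed by 1.68 ± 0.054 (SE, adjusted p = 9.88e-18) on the log2 scale with RANKL and by -0.60 ± 0.052 (SE, adjusted p = 5.08e-09) under UD.

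Rac2, a small GTPase of blood cells, had the highest mean FPKM of the members over the 9 libraries, although Gnai2 was higher in control (120.3). The FPKM of Rac2 was 87.4 ± 5.71 (SD, n = 3) in control, 127 ± 6.82 in RANKL and 151 ± 3.18 in RANKL + UD, and every step was upward without overlap. Rac2 rose by 0.63 ± 0.054 (SE, adjusted p = 7.64e-10) on the log2 scale with RANKL and by 0.16 ± 0.053 (SE, adjusted p = 0.0193) under UD. The second call was lost without RANKL replicate 1 (adjusted p = 0.115) or RANKL + UD replicate 3 (adjusted p = 0.0863). Aplp2, a relative of the amyloid precursor, had 50.6 ± 0.66, 69.7 ± 0.705 and 60.2 ± 2.2 FPKM, with log2 fold changes of 0.56 ± 0.045 (SE, adjusted p = 3.39e-10) and -0.30 ± 0.045 (SE, adjusted p = 1.71e-05). Chml, a Rab escort protein, fell with RANKL and rose under UD: its FPKM was 11.43, 11.17 and 10.96 in control, 6.61, 5.99 and 5.67 in RANKL and 10.4, 8.94 and 10.05 in RANKL + UD, with log2 fold changes of -0.79 ± 0.072 (SE, adjusted p = 2.4e-09) and 0.60 ± 0.072 (SE, adjusted p = 6.78e-07). Its call against control (-0.18, adjusted p = 0.0319) was lost without control replicate 1 or 2 or RANKL + UD replicate 2, with adjusted p from 0.0631 to 0.201, by limma (0.0574) and with no filter (0.0607). The gene 2610528A11Rik fell with RANKL (log2 fold change -1.51, adjusted p = 0.000512), from 3.59, 4.46 and 5.3 to 0.8, 1.5 and 2.08 FPKM, with 0.92, 1.7 and 1.68 in RANKL + UD.

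Near the count threshold, the members just inside were Grpr, Gm4356 and Calcr, whose third-highest counts were 10, 11 and 13, and the annotated genes just outside were Mas1, Prokr1 and Akr1c18, at 9, 9 and 8. Gm4356, which overlaps Mapk14 on the same strand, had 30, 18 and 11 counts in control, 5, 2 and 3 in RANKL and 6, 2 and 7 in RANKL + UD.

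Other genes of the pathway, which mostly lack the annotation, were counted from 8 lists by name. The counts below are to be read against the shares of all genes, 26.2% higher and 28.5% lower with RANKL and 16.6% and 18.2% under UD. Of 10 adenylyl cyclase genes 5 could be tested, and with RANKL 1 rose, Adcy3 (log2 fold change 3.12, adjusted p = 5.57e-15), and 1 fell, Adcy7 (log2 fold change -0.33, adjusted p = 1.9e-06). Under UD both were lower, with log2 fold changes of -0.44 ± 0.046 (SE, adjusted p = 9.39e-08) for Adcy7 and -0.35 for Adcy3 (adjusted p = 0.0145), the second call being lost without RANKL + UD replicate 3 (adjusted p = 0.0644) and with total counts (0.0592). Of 10 tested cyclic AMP phosphodiesterases, 3 rose and 5 fell with RANKL, and under UD 2 were higher, a count that reached 0 without RANKL replicate 3 or RANKL + UD replicate 1, and 4 lower. Pde8b rose with RANKL from 7.67, 6.41 and 6.68 FPKM to 21.77, 23.94 and 25.87 and was 13.48, 14.17 and 12.94 in RANKL + UD. Pde8b changed by 1.88 ± 0.073 (SE, adjusted p = 4.16e-16) on the log2 scale with RANKL and by -0.90 ± 0.069 (SE, adjusted p = 7.27e-10) under UD.

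Of 15 tested protein kinase A, Epac and CREB genes, 2 rose and 9 fell with RANKL, and 3 were higher and 1 lower under UD. The regulatory subunits Prkar2a and Prkar2b fell with RANKL (-0.35 and -0.97, adjusted p = 6.94e-06 and 3.3e-08) and were higher under UD (0.55 and 0.77, adjusted p = 3.64e-08 and 4.65e-06). Of 11 tested early targets of CREB, which are also induced by other signals, 1 rose (none without RANKL replicate 2) and 6 fell with RANKL, and 5 fell and 6 were not called under UD, the 5 becoming 3 without RANKL replicate 2 or RANKL + UD replicate 1. The early-response transcription factor gene Fos had 190.09, 198.93 and 198.94 FPKM in control, 33.05, 36.45 and 38.17 in RANKL and 22.45, 22 and 20.92 in RANKL + UD. The MAP kinase phosphatase gene Dusp1 had 31.02, 32.03 and 30.8 FPKM in control, 3.45, 3.38 and 3.07 in RANKL and 1.64, 2.15 and 1.75 in RANKL + UD. Their log2 fold changes were -2.36 ± 0.056 (SE, adjusted p = 4.43e-20) and -3.15 ± 0.086 (SE, adjusted p = 5.39e-19) with RANKL and -0.81 ± 0.059 (SE, adjusted p = 4.22e-10) and -0.93 ± 0.11 (SE, adjusted p = 5.17e-07) under UD.

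Of 9 tested phospholipase C and calcium genes, 3 rose and 5 fell with RANKL, and 2 were higher (1 without RANKL replicate 3 or any RANKL + UD library) and 3 lower under UD. The protein kinase C gene Prkca rose in both steps, from 0.53, 0.54 and 0.5 FPKM in control to 2.29, 2.24 and 2.26 in RANKL and 3.15, 3.13 and 3.34 in RANKL + UD, with log2 fold changes of 2.20 ± 0.11 (SE, adjusted p = 4.35e-14) and 0.42 ± 0.09 (SE, adjusted p = 0.000916). Of 20 tested heterotrimeric G protein subunits, 19 of them members, 5 rose and 8 fell with RANKL, and 5 fell under UD, with the same dependence on single libraries as the members. Of 11 tested RGS genes, 8 of them members, 4 rose and 4 fell with RANKL and 7 fell under UD. Among these falls, the calls of Rgs8, Rgs11 and Rgs18 depended on single libraries. Of 7 receptor kinases and arrestins, 1 rose and 4 fell with RANKL, and 1 was higher and 2 lower under UD, the second count being 1 without any single RANKL or RANKL + UD library.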

How the data were processed

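Per the labels, poly(A) RNA of RAW264.7 cells was sequenced as strand-specific paired-end libraries, 3 per group on day 3, and the processing notes name mm10. The aligner, counter and strand setting are not given in the sources used here. The deposited table, made by the authors, holds raw read counts per gene, and FPKM values that the authors derived from those counts, exonic length and the library total. Recomputation from these returned the deposited FPKM in 100% of genes. The columns of pairwise comparisons were not used.

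Genes with at least 10 counts in at least 3 of 9 libraries were tested with edgeR 4.0.16 (R 4.3.3): TMM scaling, 1 fit of all 9 libraries, quasi-likelihood tests, Benjamini-Hochberg adjustment over 14104 genes and a threshold of 0.05. In simulated data for RANKL + UD against RANKL, 200 of 14104 genes were changed, equally up and down. Of these, 80% of genes changed by 1 and 93% of those changed by 2 on the log2 scale were recovered, with 12 false calls. In the real data 34.7% of all genes were called, so these figures do not give the performance there. Alternatives were RLE and total-count scaling, DESeq2 1.42.0, limma 3.58.1 on log2(FPKM + 1), a filter on FPKM (1 or more in 3 or more libraries), no filter, a replicate block, the 6 libraries of a comparison, and each library left out. Replicates differed by more than sampling noise (chi-square per degree of freedom 2.85 to 8.49). With 3 against 3, an exact permutation test of a single value cannot go below p = 0.1, so none was used. The p-values set each group difference against the spread between these libraries of a single cell line. Intervals cover counting error only. Floors (3 counts over a group) cover only the counting error of the group without counts. The counts of the other group are taken as observed, so the ratios with a floor are not lower bounds.

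Named members were Calcr, up to 10 called members with the largest rise and fall in RANKL against control and in RANKL + UD against RANKL (groups not overlapping in FPKM, a mean of at least 50 counts in the higher group), the 5 with the highest mean FPKM, the smallest adjusted p under UD in each role, and the 3 nearest the count threshold on each side. Others are named as chosen after their values were seen, as were the named genes of the pathway lists. The members and lists were chosen with earlier results of these data known. Counting by strand is not stated, and an expressed gene lies across 21 members on the opposite strand and across 7 on the same strand, so their counts are uncertain. Besides those marked above, they include Gnai2 on the same strand and Gnaq, Plcb4, Gpr183, Gpr34, Igf2r, Tgm2 and Ghrl on the opposite strand. Promoter windows came from RefSeq (GRCm38.p6). Gene positions in the table often differ from the GRCm38 annotation, so positions from the 2 sources were not combined.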

Additional observations from a re-analysis of the deposited data

How the results depend on the processing

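Over the alternatives, the members called in RANKL against control ranged from 23 to 31 higher and 29 to 41 lower, in RANKL + UD against RANKL from 3 to 9 and 30 to 40, and in RANKL + UD against control from 16 to 26 and 41 to 46. The count of 6 higher members in RANKL + UD against RANKL ranged from 3 to 6 with each library left out, and the 25 higher members in RANKL + UD against control became 16 with a filter of FPKM 1 or more in 3 libraries, where 72 members were tested. With each library left out, 56 of 66, 31 of 44 and 60 of 70 calls stayed past the threshold in the 3 comparisons. Of 4776 log2 fold changes of the 95 members over all alternatives, 118 changed sign, none of them called in either fit. The genes added after their values were seen were picked partly for keeping their sign, so their stability does not stand for that of the members.

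In RANKL + UD against RANKL, total counts turned Pik3cg to 0.029 and Gnai2 to 0.077, and limma on log2(FPKM + 1) turned them to 0.025 and 0.075 and 2610528A11Rik to 0.001. Total-count scaling moved the median log2 fold change of all genes from -0.031 to -0.12 in RANKL against control and from 0.004 to 0.089 in RANKL + UD against RANKL. The cause of these changes was not tested. With each library left out, the log2 fold change ranged from -0.42 to 0.22 for 2610528A11Rik in RANKL + UD against RANKL, from -0.14 to 0.45 for Ghrl in RANKL + UD against RANKL, from -0.35 to 0.24 for Ghrl in RANKL + UD against control, from -0.039 to 0.044 for Gnai2 in RANKL + UD against RANKL, from -0.039 to 0.002 for Gnai3 in RANKL + UD against control, from -0.59 to 0.25 for Lpar2 in RANKL against control and from -0.099 to 0.002 for Pik3cg in RANKL + UD against RANKL.

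Deviations of same-numbered libraries correlated weakly, from -0.041 to 0.117, over 0.1 in 1 of 9 pairs. Such values do not settle whether the replicate numbers pair the samples. With the replicate number as a block, 67, 44 and 70 members were called in the 3 comparisons against 66, 44 and 70 without it, and 7843, 5096 and 7397 of all genes against 7712, 4897 and 7245. Of the 26 receptors, 13 had a mean FPKM under 1, where small differences rest on few counts.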

Other observations

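Genes annotated to other terms of G-protein-coupled receptor signalling, and not to the parent term used above, were examined after the members' results were seen. Of 258 such genes, 83 had enough counts. With RANKL 19 rose and 29 fell, and in RANKL + UD against RANKL 11 were higher and 19 lower, beside 26.2%, 28.5%, 16.6% and 18.2% of all genes, with a median log2 fold change of 0.016. The following 3 receptors were chosen after their values were seen.

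Ptgir, the prostacyclin receptor, had 8.1, 7.97 and 7.69 FPKM in control, 3.61, 3.9 and 2.89 in RANKL and 2.35, 2.02 and 2.03 in RANKL + UD, with log2 fold changes of -1.10 ± 0.12 (SE, adjusted p = 2.2e-08) and -0.78 ± 0.13 (SE, adjusted p = 4.61e-05) by edgeR (quasi-likelihood test, Benjamini-Hochberg adjusted). Ptger4, a prostaglandin E2 receptor, had 5.16, 4.85 and 5.41 FPKM in control, 1.79, 1.5 and 1.74 in RANKL and 2.39, 2.2 and 2.18 in RANKL + UD. It fell with RANKL (log2 fold change -1.52, adjusted p = 8.71e-12), and its higher call under UD (0.34, adjusted p = 0.0153) was lost without RANKL replicate 2 (adjusted p = 0.0894) or RANKL + UD replicate 1 (adjusted p = 0.0658). Gipr, the receptor for the incretin GIP, had 0.44, 0.31 and 0.16 FPKM in control, 0.39, 0.43 and 0.43 in RANKL and 0.13, 0.12 and 0.08 in RANKL + UD, and its log2 fold change under UD was -1.96 ± 0.46 (SE, adjusted p = 0.00185).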
